A study of Mus musculus with 18 samples.

Results

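The B cell genes followed here are Cd79a, Cd79b, Ms4a1, Ighm, Igkc, Cd22, Pax5, Fcmr and Jchain, 9 of the 30072 genes with a row in the deposited tables. They were chosen by name, as genes of the B cell receptor and the B lineage, through the Ensembl identifiers of the rows, and all 9 had a row. RNA from the heart was profiled in 18 outbred wild-type CD-1 mice, male and female littermates aged at least 8 weeks. The control group (ctrl, n = 6) received isoflurane and imaging without a therapeutic beam (0 Gy). The other groups received 25 Gy to the whole heart in 1 fraction, also under isoflurane, and were sampled 2 weeks (2wk, n = 6) or 6 weeks (6wk, n = 6) post-IR. No transgene or deletion was present in any group. The sample labels name the tissue as ventricular septum and the study's methods name it as ventricle. The 3 groups were compared with each other to see which genes differed after irradiation and when, and both comparisons with control used the same 6 control mice.

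A B cell carries on its surface an immunoglobulin made of a heavy chain, mu (Ighm) in a naive cell, and a light chain, kappa (Igkc) in most mouse B cells. The heavy and light chains have almost no cytoplasmic tail, and the signal is passed on by the paired chains Cd79a and Cd79b. Plasma cells secrete the immunoglobulin, and in them the joining chain (Jchain) links units of IgM or IgA into polymers. The adult heart is known to hold a small number of B cells, many of them inside vessels.

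Library totals ran from 11522987 to 15501019 estimated counts per mouse, and a floor of 3 counts stood for 0.194 to 0.26 CPM (counts scaled to library size, per 1e6). The floor and the filter use library totals without further scaling. All other CPM values, also in the figures, use library totals scaled by TMM (trimmed mean of M-values), so they differ somewhat. Every B cell gene except Ighm was close to that floor, which sets the precision of what follows. A gene was tested where at least 6 of the 18 mice reached 0.23 CPM, which 15054 genes did. Of the B cell genes 5 passed (Cd79a, Cd79b, Ighm, Cd22 and Jchain) and 4 did not (Ms4a1, Igkc, Pax5 and Fcmr). Cd79a and Cd79b passed mainly through the irradiated hearts, with 2 and 1 of 6 control hearts at 0.23 CPM or more against 6 of 6 at 6 weeks. On the TMM-scaled values control replicate 2 also lay above 0.23 CPM for Cd79a, at 0.25 CPM. Jchain and Cd22 each had 2 of 6 control hearts there, against 5 and 4 of 6 at 6 weeks. Counts over the 5 genes are therefore given as a description. Replicate 5 of the 2wk group stood apart from the other 17 mice in its immunoglobulin reads, so results that rest on it are given with and without it. In bulk tissue, a change in the number of B cells and a change in RNA per B cell cannot be told apart.

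At 6 weeks post-IR, the receptor genes Cd79a, Cd79b and Ighm were higher than in control hearts, by 3.02-fold, 3.45-fold and 2.04-fold. They were the 3 of 5 tested B cell genes that passed an adjusted P of 0.05 (edgeR quasi-likelihood test, Benjamini-Hochberg over 15054 genes), all 3 upward. Without control replicate 6 only Cd79b of them passed. In that comparison 25.0% of all genes passed and 13.5% passed upward. The median log2 fold change of the 5 genes was 1.47, against -0.02 over all genes tested. At 2 weeks 0 of 5 passed, with 5.02% of all genes passing, and 2 of the 5 had an unadjusted P below 0.05 (Cd79b and Jchain). Between 2 and 6 weeks 0 of 5 passed, with 5.33% of all genes passing, and only Ighm had an unadjusted P below 0.05. DESeq2 called none of the 5 in either of these comparisons, though it gave no adjusted P for Jchain at 2 weeks.

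**Figure D1:**
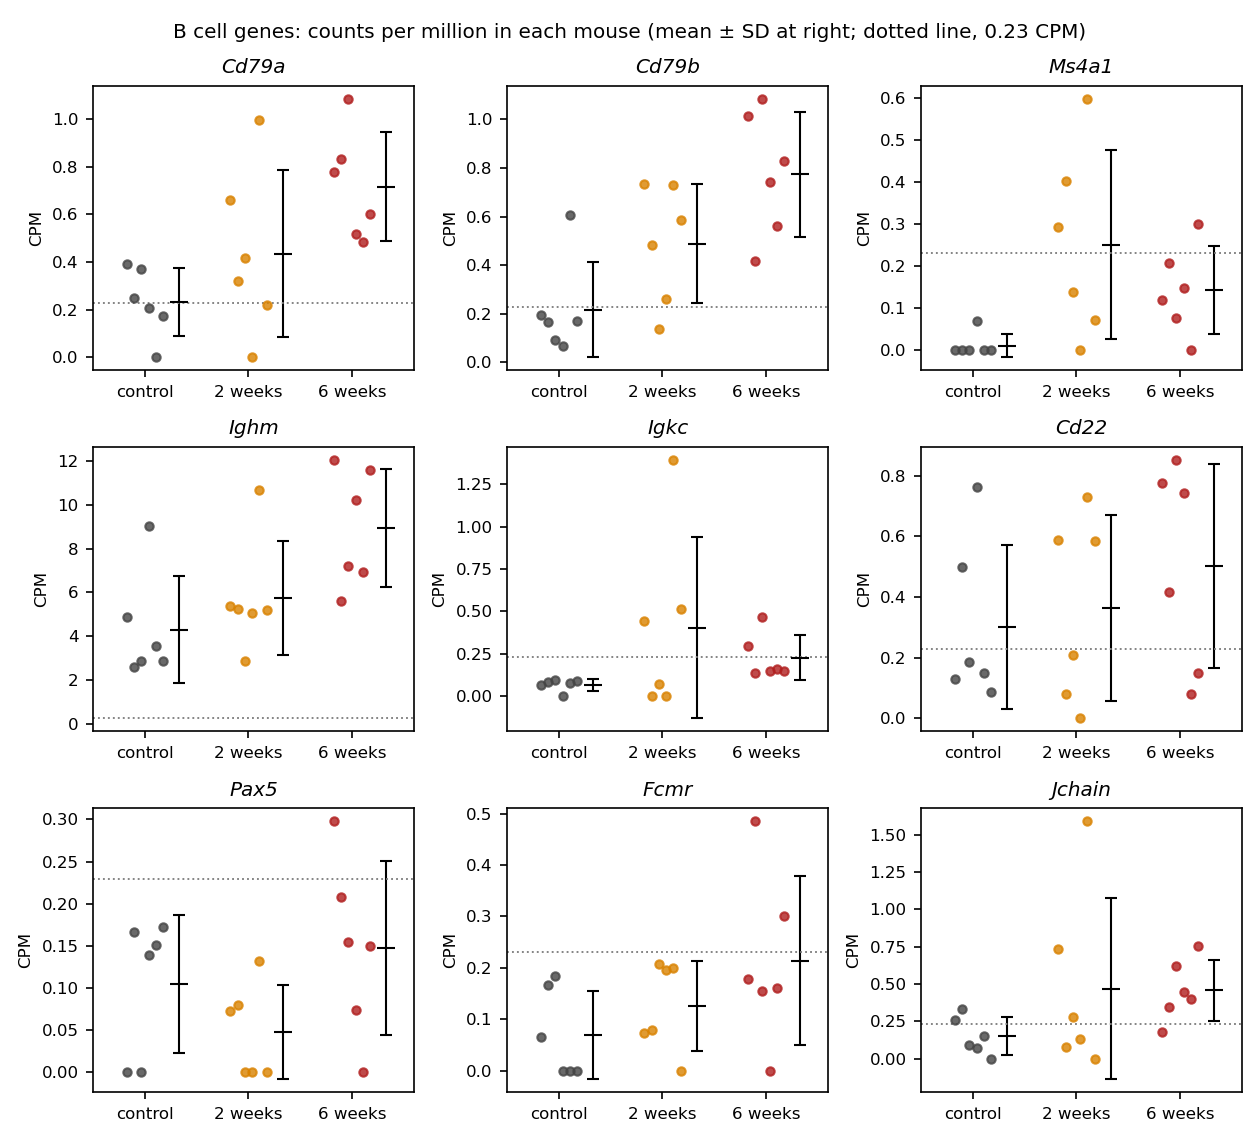
Each point is the CPM of 1 mouse for 1 B cell gene, in control, 2-week and 6-week hearts (n = 6 each), with the mean ± SD at the right of each group and a dotted line at 0.23 CPM; every panel has its own linear scale. Points are TMM-scaled, whereas the filter used library totals without that scaling. Cd79a and Igkc are the genes in which all 6 mice at 6 weeks lie above all 6 controls. Of all genes tested 5.8% separate in this way upward, and Igkc, at few counts, was not among the genes tested.

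Cd79a (ENSMUSG00000003379) encodes the alpha chain of the signalling pair and lies at chr7:24897381-24902197 on the plus strand (GRCm38), with 5 exons. Its lowest, median and highest values were 0, 0.229 and 0.391 CPM in control hearts, where the group held 18 counts. The corresponding values were 0, 0.369 and 0.995 CPM at 2 weeks (37 counts) and 0.483, 0.689 and 1.08 CPM at 6 weeks (60 counts). All 6 hearts at 6 weeks were above every control heart, whereas the 2wk group spanned both. Of all genes tested, 5.8% separated the 6wk group from control in this way upward. The log2 fold change at 6 weeks was 1.59 ± 0.51 (SE; adjusted P = 0.0270, edgeR). It passed the threshold narrowly, with adjusted P = 0.0605 in limma voom with sample weights, 0.0647 in limma voom without them, 0.0518 in the earlier (legacy) quasi-likelihood model of edgeR and between 0.0550 and 0.0609 without control replicate 5, control replicate 6 or 6wk replicate 3. At 2 weeks the log2 fold change was 0.89 ± 0.56 (SE; adjusted P = 0.399, edgeR), and without 2wk replicate 5 it was 0.44 (adjusted P = 0.735). Of the 31-base words of its transcript, 12.2% also occur in the predicted gene Gm32220, so part of its reads may be shared.

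Cd79b (ENSMUSG00000040592), the beta chain of the same pair, lies at chr11:106311341-106314762 on the minus strand. Control hearts held 1 to 8 counts, with lowest, median and highest values of 0.0694, 0.170 and 0.605 CPM. The values were 0.139, 0.534 and 0.734 CPM at 2 weeks and 0.416, 0.785 and 1.08 CPM at 6 weeks. Control replicate 5 was high for its group and overlapped the irradiated hearts, and 4 of the 6 hearts at 6 weeks exceeded it. The log2 fold change was 1.79 ± 0.44 (SE; adjusted P = 0.00494, edgeR) at 6 weeks, and it stayed below 0.05 whichever mouse was left out. At 2 weeks it was 1.11 ± 0.48 (SE; adjusted P = 0.192, edgeR), and without control replicate 5 it was 1.73 with adjusted P = 0.0445 (edgeR). Between 2 and 6 weeks the difference was 0.67 ± 0.36 (SE; adjusted P = 0.294, edgeR).

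The sequences around the start sites are shown for the tested B cell genes with an entry in the RefSeq promoter table (GRCm38.p6), which held 5 of the 9 genes (Cd79a, Cd22, Pax5, Fcmr and Jchain). Each runs from 250 bases before the start to 50 after it, read 5′ to 3′ on the gene's strand. Capitals mark a match, on either strand, to letters bound by factors known in B cells: the octamer ATGCAAAT (Oct factors), TCCC and GGGA parted by any 2 bases (early B cell factor) or GGAAGT (ETS factors). The Cd79a window is chr7:24897247-24897546 on the plus strand, the Cd22 window chr7:30878979-30879278 on the minus strand and the Jchain window chr5:88527848-88528147 on the minus strand.
Cd79a: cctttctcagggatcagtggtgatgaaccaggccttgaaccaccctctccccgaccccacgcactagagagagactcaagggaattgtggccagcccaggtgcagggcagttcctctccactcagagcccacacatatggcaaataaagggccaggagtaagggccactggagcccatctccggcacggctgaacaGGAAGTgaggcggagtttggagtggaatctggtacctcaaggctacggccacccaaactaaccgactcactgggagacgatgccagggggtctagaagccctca
Cd22: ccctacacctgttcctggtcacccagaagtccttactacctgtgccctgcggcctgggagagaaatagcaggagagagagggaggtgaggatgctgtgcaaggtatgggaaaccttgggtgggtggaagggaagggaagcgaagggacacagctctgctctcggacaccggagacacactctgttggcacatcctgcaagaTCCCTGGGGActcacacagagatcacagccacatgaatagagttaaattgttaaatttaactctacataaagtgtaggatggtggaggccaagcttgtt
Jchain: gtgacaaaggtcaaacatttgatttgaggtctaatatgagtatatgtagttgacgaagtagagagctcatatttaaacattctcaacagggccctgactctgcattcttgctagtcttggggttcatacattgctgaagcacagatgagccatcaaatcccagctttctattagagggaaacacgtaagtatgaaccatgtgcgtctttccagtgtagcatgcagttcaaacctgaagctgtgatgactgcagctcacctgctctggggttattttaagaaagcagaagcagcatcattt
The Cd79a window held 1 ETS match, from base -54 to base -49 relative to the start, and 23.8% of the 32851 promoters of this length hold those letters. The Cd22 window held 1 early B cell factor match, from base -49 to base -40, which 0.904% of promoters hold. The Jchain, Pax5 and Fcmr windows held none of the 3, and the octamer was found in 1.74% of all promoters. A match is a run of letters and was not tested for binding.

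Ighm (ENSMUSG00000076617), the constant region of the mu heavy chain at chr12:113418558-113422730 on the minus strand, was the most abundant of the B cell genes and the only one well above the count floor. Its lowest, median and highest values were 2.58, 3.21 and 9.02 CPM in control hearts (31 to 130 counts per mouse). They were 2.85, 5.21 and 10.7 CPM at 2 weeks and 5.62, 8.72 and 12.1 CPM at 6 weeks. Control replicate 4 was high for its group at 130 counts, and 3 of the 6 hearts at 6 weeks exceeded it. At 6 weeks the log2 fold change was 1.03 ± 0.32 (SE; adjusted P = 0.0226, edgeR). Leaving out control replicate 3, control replicate 6, 6wk replicate 1 or 6wk replicate 6 moved the adjusted P to just above 0.05, at most 0.0573, with log2 fold changes from 0.92 to 0.95. At 2 weeks it was 0.39 ± 0.33 (SE; adjusted P = 0.542, edgeR), with 0.106 when 2wk replicate 5 was left out and 0.755 when control replicate 4 was. Between 2 and 6 weeks it was 0.64 ± 0.30 (SE; adjusted P = 0.232, edgeR), and 0.93 without 2wk replicate 5 (adjusted P = 0.0779).

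**Figure D2:**
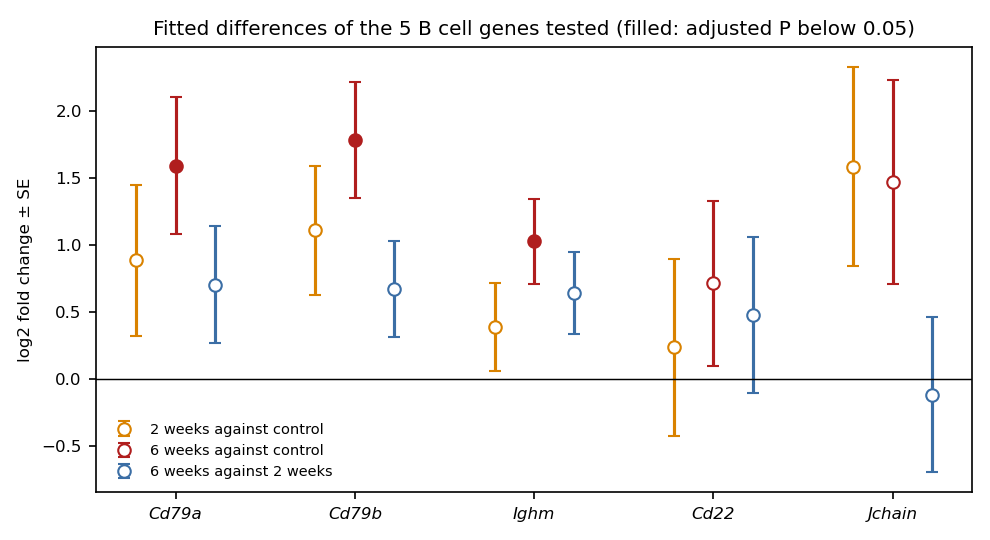
Points are fitted log2 fold changes and bars their SE for the 5 B cell genes tested, with a colour for each comparison (n = 6 mice per group). Filled points, those with an adjusted P below 0.05, are Cd79a, Cd79b and Ighm at 6 weeks against control; Jchain between 2 and 6 weeks, at -0.11, is the only fitted value below 0.

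The kappa constant region Igkc (ENSMUSG00000076609; chr6:70726435-70726966, plus strand), the partner of the heavy chain, was too rare for the filter. No control heart held more than 1 count, and the control mean was 0.0671 ± 0.0342 CPM (SD, n = 6). Each heart at 6 weeks held 2 to 6 counts, a mean of 0.227 ± 0.131 CPM (SD, n = 6), and the groups did not overlap. This separation is 0 or 1 count against 2 or more. The share of equally rare genes that separate in this way was not taken. The difference gave P = 0.00217 in a 2-sided exact permutation test, the smallest P that 6 mice against 6 allow, among 12 such tests of the 4 rare genes. In an edgeR fit with no filter its adjusted P over 21258 genes was 0.223, so the difference did not pass a correction over all genes. At 2 weeks the counts ran from 0 to 21, and replicate 5 alone held 60.0% of them. The 2-week difference gave an exact permutation P of 0.173 with that mouse and 0.346 without it. A predicted long noncoding RNA, Gm30211, overlaps Igkc on the same strand.

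Jchain (ENSMUSG00000067149; chr5:88519809-88527891, minus strand), the joining chain of secreted IgM and IgA, passed the filter with few reads. Its lowest, median and highest values were 0, 0.122 and 0.333 CPM in control hearts. They were 0, 0.205 and 1.59 CPM at 2 weeks and 0.179, 0.424 and 0.753 CPM at 6 weeks. At 6 weeks 5 of 6 hearts were above every control heart. The log2 fold change at 6 weeks was 1.47 ± 0.76 (SE; adjusted P = 0.168, edgeR), and the adjusted P was 0.0434 in a fit of those 2 groups alone and 0.0355 on log2(TPM + 0.1). On that TPM scale 98.3% of all calls at 6 weeks were upward. The fitted 2-week difference, 1.59 ± 0.74 (SE; adjusted P = 0.229, edgeR), fell to 0.63 without 2wk replicate 5, which held 24 of the 41 counts of its group. The difference between 2 and 6 weeks turned from -0.11 to 0.84 without that mouse, and neither value passed the threshold.

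Cd22 (ENSMUSG00000030577; chr7:30865402-30880342, minus strand), an inhibitory coreceptor that restrains signalling by the B cell receptor, spread widely within every group. The lowest, median and highest values were 0.0863, 0.168 and 0.763 CPM in control hearts, 0, 0.398 and 0.729 CPM at 2 weeks and 0.0804, 0.579 and 0.852 CPM at 6 weeks. The 3 groups overlapped over most of their range. The log2 fold change was 0.72 (95% interval -0.49 to 1.92) at 6 weeks (adjusted P = 0.436, edgeR) and 0.24 (-1.05 to 1.53) at 2 weeks (adjusted P = 0.882, edgeR). The 2-week value was -0.10 without 2wk replicate 5. An antisense gene, Gm29439, overlaps Cd22, and whether the counting used strand is not given in the sources used here.

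Ms4a1 (ENSMUSG00000024673; chr19:11249675-11266241, minus strand) encodes CD20, a surface protein of mature B cells that is lost in plasma cells. The 6 control hearts together held 1 count, against 21 at 2 weeks and 12 at 6 weeks. Per count of library this was a ratio of 19.2 (95% interval 3.09 to 796) at 2 weeks and 11.2 (1.65 to 477) at 6 weeks, where the exact binomial intervals cover counting error only. In each irradiated group 5 of 6 hearts were above every control heart and 1 heart was at 0. The exact permutation P was 0.0152 for both comparisons with control (0.0303 at 2 weeks without 2wk replicate 5), and the adjusted P over all genes in edgeR without a filter was 0.0671 at 2 weeks and 0.110 at 6 weeks. The 2 irradiated groups had means of 0.251 ± 0.224 and 0.142 ± 0.104 CPM (SD, n = 6 each; exact permutation P = 0.325). An antisense gene, 4930526L06Rik, overlaps Ms4a1, and 2.16% of its 31-base words also occur in other genes, so part of its few reads may be shared.

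Pax5 (ENSMUSG00000014030; chr4:44524757-44710487, minus strand), the transcription factor that holds cells to the B lineage, had no heart above 2 counts in the control and 2wk groups and 0 to 5 counts at 6 weeks. Its mean was 0.105 ± 0.0821 CPM in control, 0.0477 ± 0.0561 at 2 weeks and 0.148 ± 0.104 at 6 weeks (SD, n = 6 each), and the exact permutation P values were 0.178 and 0.465 against control and 0.0584 between 2 and 6 weeks. On the TPM scale the control and 6-week means of Pax5 were 0.328 and 0.319, the opposite order. A microRNA gene, Mir5120, overlaps Pax5 on the same strand, and 3 genes overlap it on the other strand. Fcmr (ENSMUSG00000042474; chr1:130865669-130880791, plus strand), the receptor for the Fc part of IgM, held 5, 11 and 18 counts in the control, 2wk and 6wk groups. The Fcmr groups overlapped, with exact permutation P values of 0.247 at 2 weeks and 0.113 at 6 weeks. On TPM the 6-week comparison of Fcmr gave 0.0152. The median difference over all genes tested was also above 0 on log2(TPM + 0.1), at 0.37. Most of these hearts were at or under the floor of 3 counts for both genes, so no fold change is given.

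Scaled by transcript length (TPM), Ighm was the highest of the B cell genes in every group, at 3.65 ± 2.37 TPM in control, 5.57 ± 2.598 at 2 weeks and 9.66 ± 3.13 at 6 weeks (SD, n = 6 each). Igkc was next, at 0.565 ± 0.2798, 4.17 ± 5.51 and 2.57 ± 1.51 TPM. Ighm and Igkc differed by more than the larger of their SDs in the control and 6wk groups and by less at 2 weeks. At 6 weeks Igkc was also above the next gene, Cd79b, by more than the larger SD. All other neighbours in the order differed by less than the larger of their SDs in all 3 groups. At 6 weeks Cd79b, Cd79a, Cd22, Jchain, Fcmr, Pax5 and Ms4a1 followed, from 0.896 ± 0.302 down to 0.0779 ± 0.0649 TPM. In control hearts Ms4a1 was the lowest, at 0.00428 TPM.

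Replicate 5 of the 2wk group held many of the B cell reads of its group. It held 33.0% of the Ighm, 60.0% of the Igkc and 58.5% of the Jchain counts of its 6-mouse group. The gamma 1 heavy chain Ighg1, which marks cells that have switched from IgM to IgG1, had 28 counts in this heart and 0 in each of the other 17. Variable (V) segments, the parts of the heavy and light chain genes that form the antigen-binding site, summed to 47 counts over 25 of 214 segments in it and to 0 to 11 counts in the others. No single segment exceeded 6 counts. Cxcl13, a chemokine that draws B cells into follicles, had 14 counts in this heart and at most 4 in any other. Cd79a and Ms4a1 were also highest in it among the 2wk hearts, with 15 and 9 counts. Its red blood cell markers were the lowest of its group (64.7 CPM summed, against 74.8 to 630 in the other 5 hearts). Its T cell markers summed to 8.29 CPM, the highest of a narrow range from 5.94. Ptprc (CD45), carried by all leukocytes, was also highest in it among the 2wk hearts, at 22.4 CPM against 10.4 to 18.3. Its macrophage markers, at 416 CPM summed, were the highest of the 2wk group as well. As a percentage of Ptprc CPM, its Ighm (47.6%) and Cd79a (4.44%) lay inside the range of the other 2wk hearts. That percentage was not taken for Igkc, Jchain or Ighg1.

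**Figure D3:**
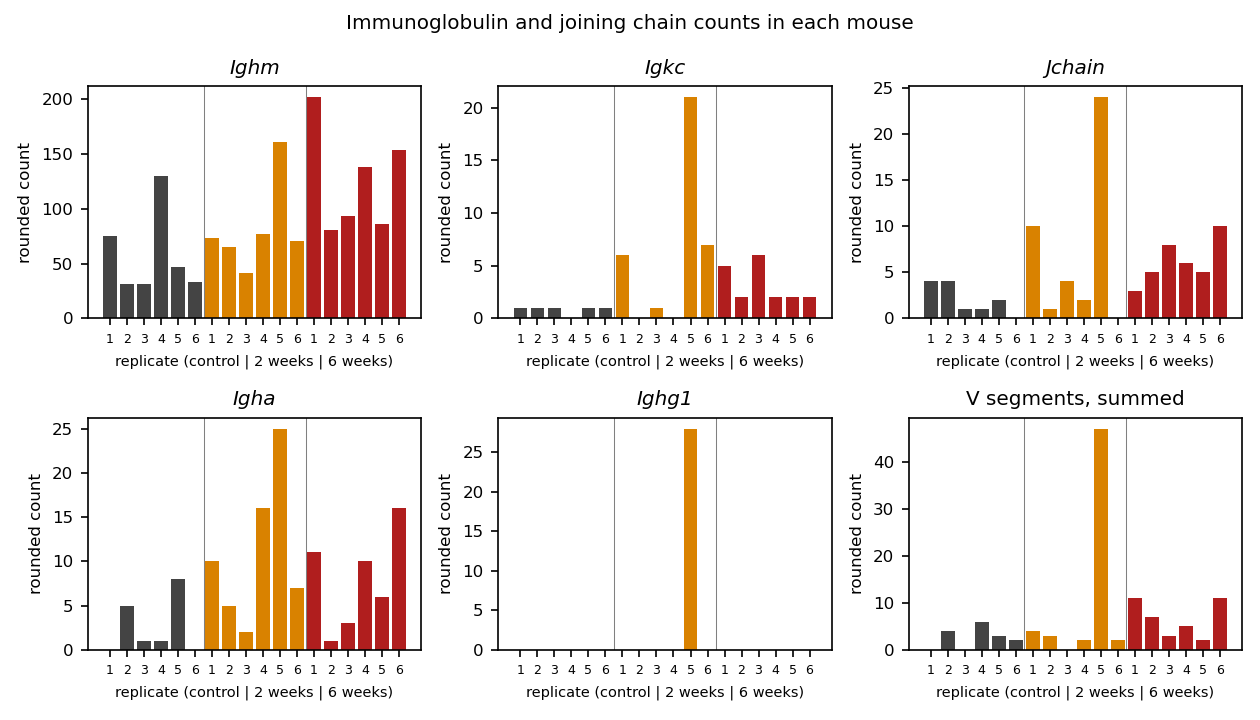
Bars are rounded estimated counts of Ighm, Igkc, Jchain, Igha, Ighg1 and the sum over V segments in each of the 18 mice, by group and replicate, on linear axes that start at 0. Replicate 5 of the 2-week group has the highest bar of the study in every panel but Ighm, where 6wk replicate 1 reaches 202 counts against its 161.

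Genes of other leukocytes also differed between the groups, not all in the same direction or at the same time as the B cell genes. Their part in the differences was not tested. Ptprc (CD45), carried by all leukocytes, had a median of 6.40 CPM in control, 14.6 at 2 weeks and 29.1 at 6 weeks, and it rose at both times (log2 fold change 1.01 ± 0.24 and 1.97 ± 0.24, SE; adjusted P = 0.0225 and 1.4e-05, edgeR). As a percentage of Ptprc CPM, Cd79a had a median of 3.31% in control, 2.68% at 2 weeks and 2.34% at 6 weeks, and the groups overlapped. Cd79b had medians of 2.45%, 3.47% and 2.29%. Ighm had medians of 57.1%, 42.0% and 26.9%, and its range at 6 weeks (23.0% to 43.7%) reached only the lower end of the control range (40.8% to 70.5%). This ratio was chosen after the values had been seen and was not tested. The 9 B cell genes summed to 3.54 to 10.3 CPM in control, 4.31 to 17.04 at 2 weeks and 8.68 to 15.7 at 6 weeks, against 180 to 524, 330 to 416 and 440 to 592 CPM for 9 macrophage markers.

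**Figure D4:**
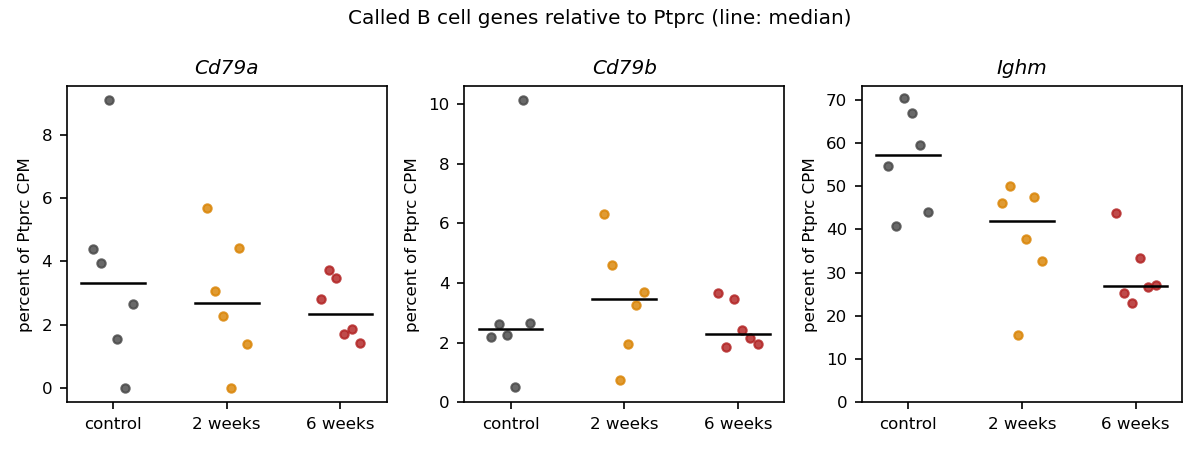
Each point is the CPM of Cd79a, Cd79b or Ighm in 1 mouse as a percentage of its Ptprc CPM, and lines are group medians (n = 6). Cd79a and Cd79b overlap across groups around medians of 2.29% to 3.47%, whereas the Ighm medians step down from 57.1% to 42.0% to 26.9%.

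The counts of cell type markers at 6 weeks that follow stand beside 13.5% of all genes upward and 25.0% in all. Of the macrophage markers 7 of 9 rose at 6 weeks and Cd163 fell. T cell markers had 2 of 7 tested genes higher at 6 weeks (Lck, log2 fold change 2.33, and Cd8a, 1.74), while Cd3e, at 0.83, did not pass (adjusted P = 0.0717, edgeR). Cd247 and Cd28, at -0.618 and -0.125, did not pass either. Lck and Cd8a had control means of 0.0969 and 0.149 CPM, below the 0.23 CPM of the filter, so their values are a description. The summed T cell markers had medians of 8.72 CPM in control, 6.93 at 2 weeks and 10.8 at 6 weeks. Cd28 alone had means of 5.959, 4.172 and 5.535 CPM in these groups. The other 7 T cell genes were below the filter. At 6 weeks edgeR without a filter gave adjusted P = 0.00302 for Cd3d, 0.00266 for Cd8b1 and 0.00566 for Cd5, all upward. Cd3g (0.0535), Trac (0.839), Trbc1 (0.289) and Trbc2 (0.623) did not pass in that fit. NK cell markers had 2 of 3 tested genes higher, dendritic cell markers 4 of 6 and neutrophil markers 1 of 3. Control means were also below 0.23 CPM for the called NK cell genes Klrk1 (0.0711) and Gzma (0.154). The same held for the called dendritic cell genes Flt3 (0.130) and Cd209a (0.206), so these values too are a description. Ptcra, a defining gene of immature thymic T cells, was at 0 in all 18 mice, while the summed thymus list ran from 23.3 to 40.3 CPM in control and 16.8 to 22.3 CPM at 6 weeks. Red blood cell markers, carried by blood left in the tissue, summed to 45.8 to 1119 CPM in control, 64.7 to 630 at 2 weeks and 40.3 to 108 at 6 weeks, with 1 of 4 tested genes (Hba-a1) lower at 6 weeks and none higher. The labelled tissue was checked by 6 cardiomyocyte markers, which summed to 23980 to 43680 CPM per heart and were all lower at 6 weeks.

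The wider B lineage was followed in 97 further genes in 7 lists, of which 93 had a row and 72 were tested. At 6 weeks 30 were higher and 1 was lower than control, beside 13.5% of all genes upward and 25.0% in all, and the median log2 fold change of the 72 was 0.59 against -0.02 over all genes. The counts of each list at 6 weeks below stand beside the same 13.5%. At 2 weeks 10 were higher and 1 lower (3.09% of all genes passed upward), and between 2 and 6 weeks 11 were higher and 1 lower (3.31% upward). The genes called at 2 weeks were Cd72, Lyn, Vav1, Ptpn6, Inpp5d, Irf8, Ikzf1, Bcl11a, Cd38 and Cd93, all higher, and Cxcl12. Those called between 2 and 6 weeks were Cd72, Ly86, Pik3ap1, Pik3cd, Inpp5d, Ptpn6, Pou2f2, Irf8, Ikzf1, Ltb and Il7r, all higher, and Ccl21a, lower. Of surface and coreceptor genes 7 of 14 tested rose at 6 weeks, among them Cd72, an inhibitory coreceptor (3.15 ± 0.39, SE; adjusted P = 4.5e-06, edgeR), Ly86, Fcgr2b, the inhibitory IgG receptor, and Tnfrsf13b (TACI), a receptor for the survival factor BAFF. Their log2 fold changes lay between 1.66 and 3.15. Cd72 reached the filter in 0 of 6 control hearts, which together held 8 counts, against 6 of 6 at 6 weeks, so it was tested only through the irradiated hearts and its value is a description. Ly86 and Fcgr2b are also expressed by macrophages.

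Genes that carry or restrain the signal of Cd79a and Cd79b had 11 of 20 higher at 6 weeks and none lower. They were led by Lyn, the kinase that first phosphorylates the pair (0.63 ± 0.08), Pik3ap1, an adaptor for PI3 kinase (1.73 ± 0.22), Inpp5d, the lipid phosphatase SHIP1 (1.03 ± 0.13), and the phosphatase Ptpn6, SHP1 (1.51 ± 0.21; log2 fold change ± SE). Lyn, Inpp5d, Ptpn6 and the exchange factor Vav1 were already higher at 2 weeks. These genes also serve myeloid cells. Blnk, the adaptor bound by Cd79a, passed at 0.62 ± 0.22 (SE; adjusted P = 0.0478, edgeR) and the kinase Syk did not, at 0.20 ± 0.12 (SE; adjusted P = 0.229, edgeR), both named after their values were seen.

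Of 18 transcription factors of the lineage 6 were higher at 6 weeks, among them Irf8 (1.61 ± 0.17), Ikzf1 (1.36 ± 0.17), Pou2f2 (1.64 ± 0.24) and Spi1 (1.13 ± 0.24; log2 fold change ± SE), all also used by other leukocytes. Pou2af1, the B cell coactivator of Oct factors, had a mean of 0.0432 CPM in control and 0.288 CPM at 6 weeks (2.63 ± 0.71, SE; adjusted P = 0.00713, edgeR). It reached the filter in 0 of 6 control hearts, with 3 control counts in all, and in 5 of 6 at 6 weeks, so its value too is a description. Ebf1, at 37.1 CPM in control, did not pass (0.09 ± 0.09, SE; adjusted P = 0.532). Pou2af1 and Ebf1 were named after their values were seen. Of plasma cell and secretion genes 2 of 9 tested were higher at 6 weeks, Cd38 (0.66 ± 0.10) and Edem1 (0.65 ± 0.13), a factor for disposal of misfolded proteins, and the median of the 9 was 0.05. Among other constant segments 2 were tested, the alpha chain Igha (1.497 ± 0.75, SE; adjusted P = 0.156, edgeR) and Ighg2c (-0.14 ± 0.78, SE; adjusted P = 0.921, edgeR), and neither passed. None of the 214 V segments passed the filter.

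Of 7 survival and homing genes tested, the cytokine Ltb and its receptor Ltbr were higher at 6 weeks (1.91 ± 0.40 and 0.34 ± 0.07) and Ccl21a, a chemokine of lymphatic vessels, was lower (-1.07 ± 0.23; log2 fold change ± SE). Ltb had a control mean of 0.193 CPM, below the 0.23 CPM of the filter, so its value is a description. At 2 weeks Cxcl12, a retention chemokine, was the 1 gene called, downward (-0.66 ± 0.14, SE; adjusted P = 0.0120, edgeR). The early precursor list had only Cd93 and Il7r tested, and both were higher at 6 weeks (1.03 ± 0.14 and 1.14 ± 0.38). Cd93 is abundant in endothelium (146 CPM in control) and Il7r is shared with T cells. Of the defining genes of bone marrow precursors, Vpreb2 was at 0 in all 18 mice, and Rag2, Dntt, Igll1 and Vpreb3 had at most 1 count in any heart. Vpreb1, part of the surrogate light chain, held 4 counts in control, 11 at 2 weeks and 11 at 6 weeks, and Rag1, which cuts DNA to join V segments, held 0, 7 and 2. Neither passed the filter.

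**Figure D5:**
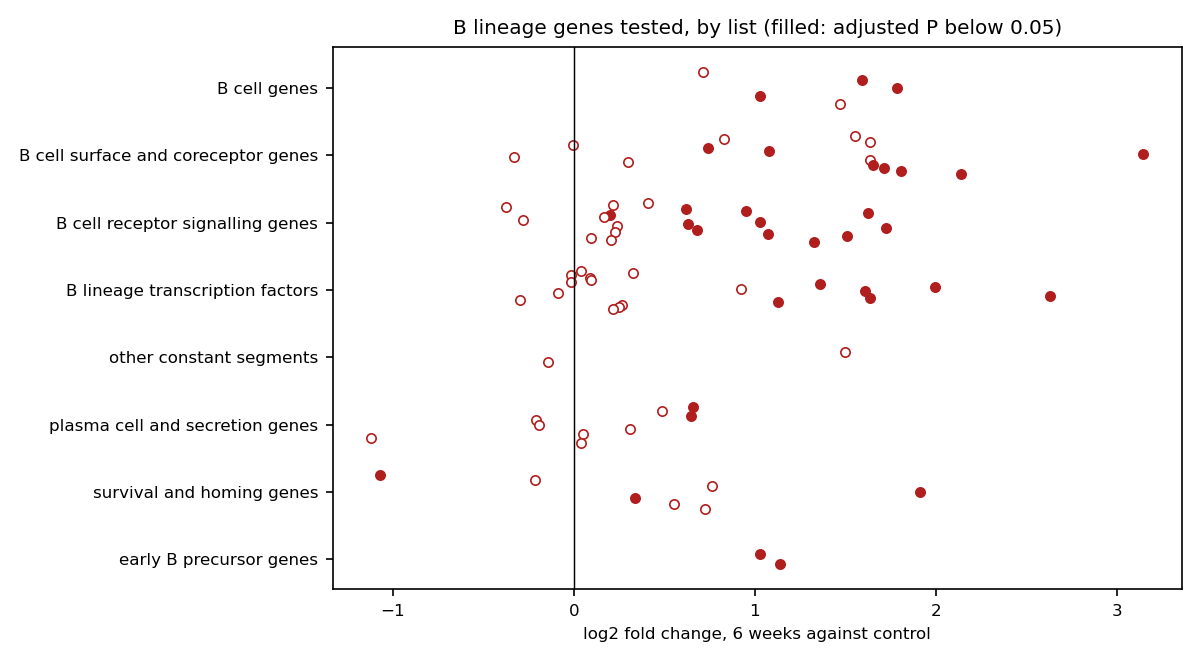
Each point is the fitted log2 fold change of 1 gene at 6 weeks against control (n = 6 mice each), by list, and filled points have an adjusted P below 0.05. Of the 5 B cell genes 3 are filled, as are 7 of 14 surface, 11 of 20 signalling and 6 of 18 transcription factor genes.

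Within the groups, the genes whose levels followed the 5 tested B cell genes most closely were Rrm2, Nkg7, Rps4l, Cherp, Cyp4f18, Smim7, Klhl42 and Arf6. Likeness was Pearson's r between log2 CPM and the mean z-score of the 5 genes over 18 mice, after each group's mean had been subtracted, and ran from 0.742 (Arf6) to 0.762 (Rrm2). Spearman's rho ran from 0.678 (Klhl42) to 0.816 (Cherp). Without 2wk replicates 4 and 5, the mice farthest from the median of the score, r ran from 0.453 (Klhl42) to 0.829 (Rrm2). These 8 were the highest values in a search over the 15054 genes tested, with the 5 B cell genes left out. How high the top values of such a search run by chance was not tested. The points share library and scaling, and the values describe these mice only.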

How the data were processed

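Bulk RNA-seq of 18 mouse hearts was analysed. The authors sequenced KAPA RNA HyperPrep libraries on a NovaSeq, aligned reads to GRCm38 with STAR and quantified transcripts with Salmon (v. 1.0). The deposited tables hold estimated counts per gene, summarised by tximport, and TPM, whose scale keeps no depth. Estimated counts were rounded to whole numbers. Genes with at least 0.23 CPM in 6 or more mice (15054) were scaled by TMM and tested in 1 fit of 3 groups with edgeR (v. 4.0.16) in R (v. 4.3.3), where a call was a Benjamini-Hochberg adjusted P below 0.05. The filter reverses the wording of the study, which removed genes below 0.23 CPM in 6 or more mice, and that reading is among the alternatives. The 4 genes below the filter were compared by 2-sided exact permutation tests on CPM (scipy v. 1.17.1). Symbols matched 29301 of 30072 identifiers, and 771 had none. Gene positions are from GENCODE on GRCm38.

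The members and gene lists were chosen with earlier results of these data known. All 9 B cell genes were described in every comparison, and for each further list up to 4 called genes by smallest P were named, or the 2 most abundant where none was called, besides those said to be chosen after their values were seen. Replicates were separate mice by the labels, and no 2 libraries held the same values. Depth was 11522987 to 15501019 estimated counts per mouse, which limits all of these genes but Ighm; floors and the intervals of count ratios cover counting error only, and those of fitted differences include the spread between mice. Same-numbered mice of different groups did not deviate together (correlations -0.0828 to 0.106), so numbers were not treated as pairs. Alternatives were DESeq2 (v. 1.42.0), limma voom (v. 3.58.1) with and without sample weights, library size or upper quartile scaling, no filter or the literal filter, limma on log2(TPM + 1) or log2(TPM + 0.1), fits of 2 groups, the replicate block, each mouse left out and other thresholds. The earlier edgeR model and leaving mice out of the exact tests were added after the data had been seen. The fitting step was tested on simulated data. 1 gene of the further lists enters their counts and is otherwise not reported here.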

Additional observations from a re-analysis of the deposited data

Results flagged for a closer look

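In 46 sets of 6 mice (9 B cell genes, 6 further constant segments and the V segment sum in each group, without sets at 0 throughout), 12 had 1 mouse whose gap to its nearest neighbour was larger, as a share of the group's range, than Dixon's critical value. Chance flags about 1 set in 20, and values of 0 or 1 count are flagged easily.

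Replicate 5 of the 2wk group was high for Ighm (10.7 CPM, against 2.85 to 5.36 in the other 5 mice), Igkc (1.39 CPM, against 0 to 0.513), Ighg1 (1.86 CPM, against 0) and the V segment sum (3.12 CPM, against 0 to 0.294). In the control group, replicate 4 was high for Ighm (9.02 CPM, against 2.58 to 4.88), where its Igkc was the low value of the group (0.0 CPM, against 0.0651 to 0.0925), and it held the 1 control count of Ms4a1 (0.0694 CPM). Control replicate 5 was high for Cd79b (0.605 CPM, against 0.0694 to 0.195) and held the 1 control count of Ighg3 (0.0756 CPM). Control replicate 2 held the 1 control count of Ighg2b (0.0833 CPM). Replicate 2 of the 6wk group held all 6-week counts of Ighg2b (0.208 CPM, 3 counts) and Ighg3 (0.0694 CPM, 1 count). The cause of these values was not tested.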

How the results depend on the processing

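With 0 to 24 counts per heart, all B cell genes but Ighm were measured close to the count floor, which is the main limit on these results. Of the 3 calls at 6 weeks, Cd79b kept its call under all 11 alternatives that could be fitted, whereas the literal filter left Ighm as the only B cell gene tested and called (1 gene). Cd79a lost its call in 3 of the alternatives, limma voom with and without sample weights and the earlier edgeR model, and 4 genes were called, with Jchain, in the fit of 2 groups and on log2(TPM + 0.1). With log2(TPM + 0.1) 1 B cell gene was called at 2 weeks (Cd79b), where 98.85% of all calls were upward. Leaving out 1 mouse at a time gave 0 to 1 calls at 2 weeks (Cd79b without control replicate 5) and 1 to 3 at 6 weeks (1, Cd79b, without control replicate 6).

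Scaling to library size alone shifted the middle of the fitted differences over all genes to 0.15 at 2 weeks, 0.24 at 6 weeks and 0.11 between them, and 94.4% of calls at 6 weeks were then upward, against 54.0% with TMM scaling. Cd79a, Cd79b and Ighm stayed called, at 1.85, 2.04 and 1.28. Calls among the 72 further lineage genes then numbered 19, 48 and 23, in place of 11, 31 and 12. They were 20, 52 and 21 with log2(TPM + 1), and 23 and 54 in the comparisons with control with log2(TPM + 0.1). Fits of 2 groups gave 7 at 2 weeks, limma voom with sample weights 20 between 2 and 6 weeks, and an adjusted P of 0.10 gave 24 there. With an absolute log2 fold change above 1 as well, 1 remained at 2 weeks and 5 between 2 and 6 weeks. Leaving out 1 mouse at a time gave 5 to 14, 29 to 35 and 6 to 17. The TPM scales also shifted the middle of all genes at 6 weeks, to 0.29 on log2(TPM + 1) and 0.37 on log2(TPM + 0.1). On both of them 98.3% of calls at 6 weeks were upward.

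The direction of uncalled differences turned in 4 genes. Cd22 at 2 weeks was -0.006 and -0.104 in limma voom with and without sample weights, -0.10 and -0.39 on log2(TPM + 1) and log2(TPM + 0.1), and -0.098 to 0.801 when 1 mouse was left out, below 0 only without 2wk replicate 5. Jchain between 2 and 6 weeks was 0.82 and 0.76 in limma voom, 0.13 and 0.72 on the TPM scales, 0.011 with the replicate block, and -0.365 to 0.84 when 1 mouse was left out, above 0 without 2wk replicate 1, 2wk replicate 5 or 6wk replicate 1. Pax5 at 6 weeks differed by -0.0089 TPM, and Igkc between 2 and 6 weeks by -0.2562 to 0.0223 CPM when 1 mouse was left out, above 0 only without 2wk replicate 5. The cause of these turns was not tested. The replicate block otherwise left 0, 3 and 0 B cell genes called, and its calls among the lineage genes were 8, 33 and 12; same-numbered mice correlated best with their own number in 1, 2 and 2 of 6 pairs, so the numbers were not read as pairs.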

Other observations

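Ighg2c, a gamma heavy chain segment, was listed at 0 in 2 mice of the control group, 1 of the 2wk group and 2 of the 6wk group and held 17 to 62 counts in each of the other 13, with no mouse in between. CD-1 mice are outbred, and the genotype of the locus was not tested.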
